A study of Homo sapiens with 4 samples.

Results

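The 10 genes described here encode the enzymes that make serine from a glycolytic intermediate and the enzymes that pass its side-chain carbon through folate. They were taken by symbol from tables of 20457 features, and all 10 were found and passed the expression minimum. They comprise 3 serine synthesis genes (*PHGDH*, *PSAT1*, *PSPH*), 4 genes of the mitochondrial folate branch (*SHMT2*, *MTHFD2*, *MTHFD1L*, *ALDH1L2*) and 3 of the cytosolic branch (*SHMT1*, *MTHFD1*, *TYMS*). RNA came from HEK293, an established line of human embryonic kidney origin. It is labelled wild type in the 2 libraries given a negative control siRNA (siControl) and as a knockdown of CNOT4 in the 2 libraries given an siRNA against *CNOT4* (siCNOT4). All 4 libraries received siRNA at 10 nM for 72 h. The CNOT4 protein is an E3 ubiquitin ligase linked to the CCR4-NOT deadenylase complex, and the study asked what part it plays in how codon usage shapes expression. The labels do not say whether replicates were separate cultures, so p-values measure only the spread between libraries, which may be technical.

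PHGDH, PSAT1 and PSPH act in sequence to convert 3-phosphoglycerate to serine. Serine hydroxymethyltransferase then splits serine into glycine and methylene-tetrahydrofolate, in mitochondria (SHMT2) or in the cytosol (SHMT1). In mitochondria the folate-bound carbon is oxidised by MTHFD2 and released as formate by MTHFD1L, or is burned to carbon dioxide by ALDH1L2. In the cytosol MTHFD1 returns formate to folate for purine synthesis, and TYMS spends methylene-tetrahydrofolate to make thymidylate. Proliferating cells run the branches as a cycle, and several of the serine and mitochondrial genes are known targets of the transcription factor ATF4.

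The values are TPM, transcript abundances that the authors corrected for gene length and scaled to a total of 1000000 in each library. The low values moved in steps of 1 read, from which the reads of each library were recovered (25379701 to 28530390 in all). All tests used the 14208 features that averaged 1 TPM or more. Over these, siCNOT4 exceeded siControl by a median of 0.50 on the log2 scale, and siControl replicate 1 exceeded replicate 2 by a median of 0.38. Each fold change of a single gene is therefore also given relative to that median or after TMM scaling, which trims the most changed features before it equalises libraries and brought the median to -0.042. *CNOT4* itself stood at 6.43 and 4.73 TPM in siControl and at 3.38 and 3.81 TPM in siCNOT4, with a log2 fold change of -0.51 (limma adjusted p = 0.184). After TMM scaling *CNOT4* was -0.997 (limma adjusted p = 0.0329), and quantile normalization, removal of length and GC trends and voom called it lower too. The call was absent with a pseudocount of 0.1 or with no filter (limma adjusted p = 0.203 and 0.220). It was also absent with no trend in limma or with a replicate block (limma adjusted p = 0.147 and 0.355). Of 7 listed markers of HEK293 cells, 6 passed the minimum, and the 7 summed to 1855 and 1572 TPM in siControl against 1339 and 1341 TPM in siCNOT4, with *VIM* called lower. Without *VIM* the other 6 summed to 939 and 922 TPM in siControl and 970 and 987 TPM in siCNOT4. Of 12 markers of blood, fibroblasts, endothelium, hepatocytes and red cells, 1 did, and *HBB* was at 0 in every library. The 12 markers summed to 2.43 and 2.48 TPM in siControl and 7.56 and 9.54 TPM in siCNOT4, with *COL1A1* called higher. The part of these differences in the results below was not tested. In bulk RNA, a change in the share of cells that express a gene and a change in RNA per cell cannot be told apart.

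Promoter sequence in the RefSeq table (GRCh38.p14) was matched for 7 of the 10 genes, and *PSPH*, *SHMT2* and *ALDH1L2* had no entry there. Each window runs from 250 bases before a start to 50 after it. Searched on both strands, TGATGNAA (the core of the composite element bound by ATF4 with C/EBP factors) occurred in *MTHFD1L* windows and in none of the other 6 genes, against 3.62% of 35116 windows of that length in the table and 4.46% of its 27305 genes. It lay in 3 overlapping *MTHFD1L* windows, beginning at position -129, -90 or 25 from the start each window used, so that it is upstream of 2 starts and transcribed from the other. CCAAT, the box bound by NF-Y, occurred in all matched genes but *TYMS*, against 34.6% of all windows and 39.7% of genes. CACGTG, an E-box, occurred in *MTHFD1* and *MTHFD1L*, against 7.26% of all windows and 8.77% of genes. No matches of different motifs overlapped in these 7 genes. A match is a description of letters and not of binding, and its absence says only that the letters are not in the window.

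The *MTHFD1L* site is shown as the TGATGNAA match of the set, with that match in capitals (chr6:150866346-150866375, plus strand):
MTHFD1L: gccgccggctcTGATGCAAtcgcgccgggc
A serine synthesis gene and a cytosolic folate gene are shown to compare a member that was called lower with one that was not. Capitals mark CCAAT or its complement ATTGG, and both stretches lie outside annotated exons (*PSAT1*, chr9:78296875-78297124, plus strand; *SHMT1*, chr17:18363564-18363800, minus strand):
PSAT1: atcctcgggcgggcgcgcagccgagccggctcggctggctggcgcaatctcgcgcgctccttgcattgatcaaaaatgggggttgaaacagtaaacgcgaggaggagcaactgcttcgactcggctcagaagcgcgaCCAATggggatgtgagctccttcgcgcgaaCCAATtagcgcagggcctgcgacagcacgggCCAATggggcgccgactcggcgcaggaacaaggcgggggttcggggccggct
SHMT1: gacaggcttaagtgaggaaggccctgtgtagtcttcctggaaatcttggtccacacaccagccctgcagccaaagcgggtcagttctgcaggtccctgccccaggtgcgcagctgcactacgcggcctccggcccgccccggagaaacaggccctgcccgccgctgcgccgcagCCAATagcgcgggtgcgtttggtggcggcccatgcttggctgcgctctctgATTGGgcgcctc
The *PSAT1* stretch holds 3 such boxes and the *SHMT1* stretch 2, so CCAAT boxes were present in a gene that was lower in siCNOT4 and in one that was not.

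The serine synthesis genes were all lower in siCNOT4, and the first enzymes of the route passed the test. *PHGDH*, the entry enzyme, stood at 739 and 712 TPM in siControl and at 427 and 361 TPM in siCNOT4. The groups did not overlap. In siControl, replicate 1 exceeded replicate 2 by 0.055 on the log2 scale for *PHGDH*, beside the median of 0.38 over all features. The group means were 726 ± 19.4 and 394 ± 46.4 TPM (SD, n = 2 each), a ratio of 0.543. On the log2(TPM + 1) scale *PHGDH* fell by 0.88 (SE 0.14, limma adjusted p = 0.0260), and by 1.49 after TMM scaling (limma adjusted p = 0.0350). *PSAT1*, the aminotransferase of the next step, stood at 368 and 267 TPM in siControl and at 183 and 156 TPM in siCNOT4. The lower siControl library was still above both siCNOT4 libraries. *PSAT1* fell by 0.88 (SE 0.20, limma adjusted p = 0.0439), with a ratio of means of 0.535, and by 1.49 after TMM scaling. The call for *PSAT1* ended with a pseudocount of 0.1, with no filter, at a mean TPM of at least 5 and with no trend in limma (adjusted p = 0.0611, 0.0783, 0.0624 and 0.0713). *PSPH*, the phosphatase that finishes serine, stood at 67.4 and 51.1 TPM in siControl against 46.4 and 40.8 TPM in siCNOT4. These values did not overlap either, but the gap between the nearest libraries was small, and the log2 fold change of -0.42 (SE 0.22) gave limma's adjusted p of 0.181. After TMM scaling the fold change of *PSPH* was -1.01 with a limma adjusted p of 0.0322.

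The 3 genes therefore kept unequal proportions. *PHGDH* exceeded *PSPH* 10.98-fold and 13.9-fold in the siControl libraries and 9.20-fold and 8.84-fold in the siCNOT4 libraries. *PSAT1* exceeded *PSPH* 5.46-fold and 5.22-fold in siControl and 3.95-fold and 3.83-fold in siCNOT4. Neither ratio overlapped between the groups, but *PHGDH* over *PSPH* differed more between the siControl replicates than between the nearest libraries of the groups. Summed over the 3 genes, serine synthesis RNA was 1175 and 1030 TPM in siControl and 656 and 558 TPM in siCNOT4.

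**Figure D1:**
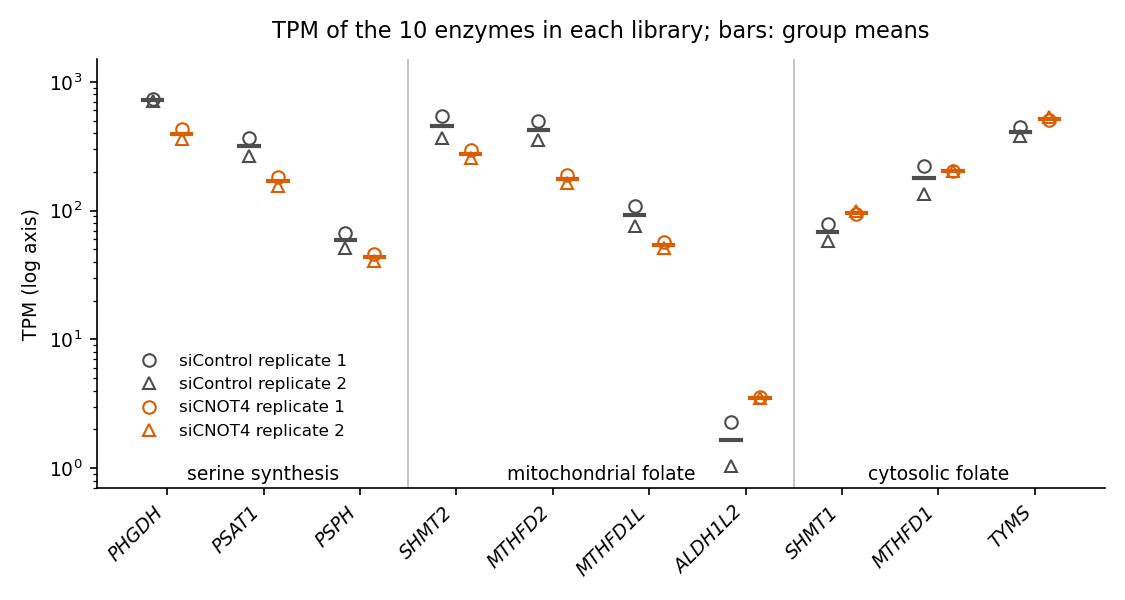
TPM (log axis) of the 10 enzymes in each library, with circles for replicate 1, triangles for replicate 2 and bars for group means. The siCNOT4 values lie below both siControl values for 6 genes and above both for *ALDH1L2*, *SHMT1* and *TYMS*.

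In the mitochondrial folate branch, the 3 genes that carry serine carbon to formate were lower in siCNOT4 and *ALDH1L2* was higher. *MTHFD2*, a dehydrogenase and cyclohydrolase, stood at 498 and 350 TPM in siControl and at 190 and 163 TPM in siCNOT4. Both siCNOT4 libraries were far below the lower siControl library. The means were 424 ± 105 and 176 ± 19.3 TPM, a ratio of 0.415. *MTHFD2* fell by 1.25 (SE 0.20, limma adjusted p = 0.0272), and of the 14208 features tested only 44 had a lower fold change. The call for *MTHFD2* ended with no filter, at a mean TPM of at least 5 and with no trend in limma (adjusted p = 0.0567, 0.0506 and 0.0527), and that for *PHGDH* with no trend alone of these settings (limma adjusted p = 0.0590). Among the 10 enzymes it had the lowest fold change for TPM as deposited, after TMM scaling (-1.85) and on recovered reads (-1.53).

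*SHMT2*, which feeds serine into the branch, stood at 538 and 367 TPM in siControl against 293 and 257 TPM in siCNOT4. The siControl libraries differed from each other by more than the lower of them differed from siCNOT4. As deposited, the log2 fold change of *SHMT2* was -0.69 (SE 0.21, limma adjusted p = 0.0678), and after TMM scaling -1.29 (limma adjusted p = 0.0318). *MTHFD1L*, the formate-releasing synthetase, stood at 109 and 76.0 TPM in siControl against 56.9 and 50.9 TPM in siCNOT4, again with no overlap. The corresponding values for *MTHFD1L* were -0.75 (SE 0.23, limma adjusted p = 0.0684) and -1.34 (limma adjusted p = 0.0296). The call for *SHMT2* and *MTHFD1L* thus depended on the scaling, while the direction was the same in every alternative run.

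*ALDH1L2*, the dehydrogenase that ends the branch in carbon dioxide, was rare. It stood at 2.28 and 1.04 TPM in siControl and at 3.55 and 3.49 TPM in siCNOT4, from 223, 115, 330 and 321 recovered reads. Exact Poisson intervals (95%, counting error only) ran over 1.99-2.603 and 0.856-1.24 TPM for the siControl libraries and over 3.17-3.95 and 3.12-3.90 TPM for the siCNOT4 libraries. The groups did not overlap, with siCNOT4 higher as for 66.4% of all features, but the siControl libraries differed beyond counting error. The log2 fold change was 0.81 (SE 0.28, limma adjusted p = 0.0876), 0.30 above the median of all features, and -0.018 after removal of length and GC trends. On the opposite strand of *ALDH1L2*, *C12orf45* shares up to 145 bases of exon in GENCODE 29 and stood at 70.0 to 83.6 TPM. The use of strand in counting is not given in the sources used here, so reads of these genes cannot be told apart if it was not used.

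No cytosolic gene was called for TPM as deposited. *SHMT1*, the cytosolic counterpart of SHMT2, stood at 78.3 and 57.6 TPM in siControl and at 93.5 and 98.6 TPM in siCNOT4. *TYMS*, the thymidylate synthase, stood at 443 and 377 TPM in siControl and at 508 and 529 TPM in siCNOT4. For both genes the groups did not overlap, siCNOT4 being higher, as it was for 66.4% of all features. *MTHFD1*, the trifunctional enzyme, stood at 223 and 136 TPM in siControl, and both siCNOT4 libraries (204 and 203 TPM) lay between these values. The log2 fold changes of 0.51 (SE 0.20) for *SHMT1*, 0.34 (SE 0.14) for *TYMS* and 0.23 (SE 0.24) for *MTHFD1* had limma adjusted p values of 0.114, 0.117 and 0.489. Relative to the median of all features they were 0.0091, -0.16 and -0.28, and after TMM scaling all 3 were below 0 (-0.087, -0.26 and -0.38). The sign for the cytosolic genes was therefore set by the scaling, and with length and GC trends removed *MTHFD1* was called lower (-0.46, limma adjusted p = 0.0340). The 95% interval for *MTHFD1* ran from -0.37 to 0.82, so these data do not show that its level was equal in the groups. On opposite strands, *TYMS* shares up to 719 bases of exon with *ENOSF1* (14.5 to 20.8 TPM), and *SHMT1* shares up to 196 with *SMCR8*, itself at 16.9 and 8.40 TPM in siControl and 37.4 and 43.1 TPM in siCNOT4. Likewise *MTHFD2* shares up to 1324 bases with *SLC4A5* (0.736 and 0.468 TPM in siControl, 2.29 and 2.28 TPM in siCNOT4). *MTHFD1* shares up to 178 with *ZBTB25* (4.48 to 12.3 TPM), and *SHMT2* up to 33 with *NDUFA4L2* (3.31 to 4.41 TPM). Pseudogenes of *PSAT1*, *PSPH*, *MTHFD2*, *MTHFD1*, *SHMT1* and *TYMS* are annotated, but those looked up had no values here, so reads such copies share with these genes are uncertain.

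**Figure D2:**
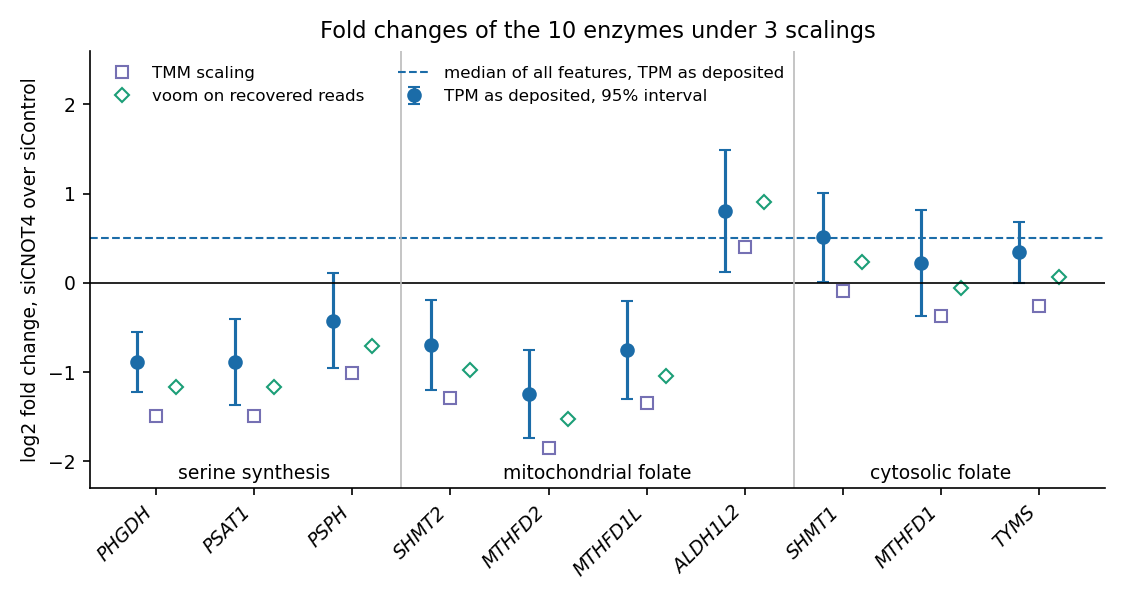
Log2 fold change of siCNOT4 over siControl for each enzyme, with 95% limma intervals for TPM as deposited, and the estimates after TMM scaling and from voom on recovered reads. The dashed line is the median of all features (0.50); the cytosolic genes lie between 0.23 and 0.51 as deposited, and *MTHFD2* is lowest under each scaling.

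By the test across all features, 3 of 10 genes were called lower (*PHGDH*, *PSAT1*, *MTHFD2*) and 0 higher, at a limma adjusted p under 0.05. At an unadjusted p under 0.05, limma gave 5 lower and 3 higher. Of all features tested, 1.30% were called lower and 11.3% higher, and at the unadjusted p 4.0% (568) were lower and 38.0% (5406) higher. After TMM scaling 6 were called lower, namely all 3 serine synthesis genes and the 3 mitochondrial genes other than *ALDH1L2*, where 5.78% of all features were called lower and 4.12% higher. With voom on the recovered reads 5 were called lower, against 3.04% of all features lower and 11.9% higher. No cytosolic gene was called in any of these 3 fits. Both siCNOT4 libraries lay below both siControl libraries for 6 of 10 genes, against 10.6% of all features, and above them for 3, against 66.4%. The genes were chosen with earlier results of these data known, so these shares describe them.

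The calls were sensitive to single libraries. Without siCNOT4 replicate 1 or without siCNOT4 replicate 2, only *MTHFD2* of the 10 was called (limma adjusted p = 0.0058 and 0.0365), where 0.260% of all features were called lower in each case. Without siControl replicate 1 or without siControl replicate 2, where the lone siControl library was assumed to vary like the siCNOT4 pair, 9 were called, 5 lower and 4 higher without replicate 1 and 6 lower and 3 higher without replicate 2. Of all features, 8.73% were then called lower and 70.9% higher without replicate 1, and 10.3% lower and 47.2% higher without replicate 2. The share of members called higher was thus below that of all features in both cases. *MTHFD1* was -0.13 without siControl replicate 2, in place of 0.23. With the replicate number as a block, *SHMT2* and *MTHFD1L* were called as well (limma adjusted p = 0.0049 and 0.0315; 2.20% of all features were called lower), although nothing in the labels says that the numbers mark a shared culture or day.

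The branches were contrasted within each library, where any common scaling factor of a library drops out of a ratio. *SHMT2* exceeded *SHMT1* 6.87-fold and 6.37-fold in siControl and 3.13-fold and 2.61-fold in siCNOT4. The ratio in siCNOT4 was 0.434 of that in siControl. *MTHFD2* exceeded *MTHFD1* 2.23-fold and 2.58-fold in siControl, whereas in siCNOT4 it reached 0.929 and 0.802 of the *MTHFD1* level. The order of that pair was thus reversed in both siCNOT4 libraries. *MTHFD1L* was 0.490 and 0.560 of *MTHFD1* in siControl and 0.278 and 0.251 of it in siCNOT4. All 3 ratios were separated between the groups by more than they differed between replicates, including the siControl replicates, whose single genes differed by up to 0.71 on the log2 scale (*MTHFD1*). The ratios of *MTHFD2* and *MTHFD1L* share *MTHFD1* as denominator, so they are not independent of each other.

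**Figure D3:**
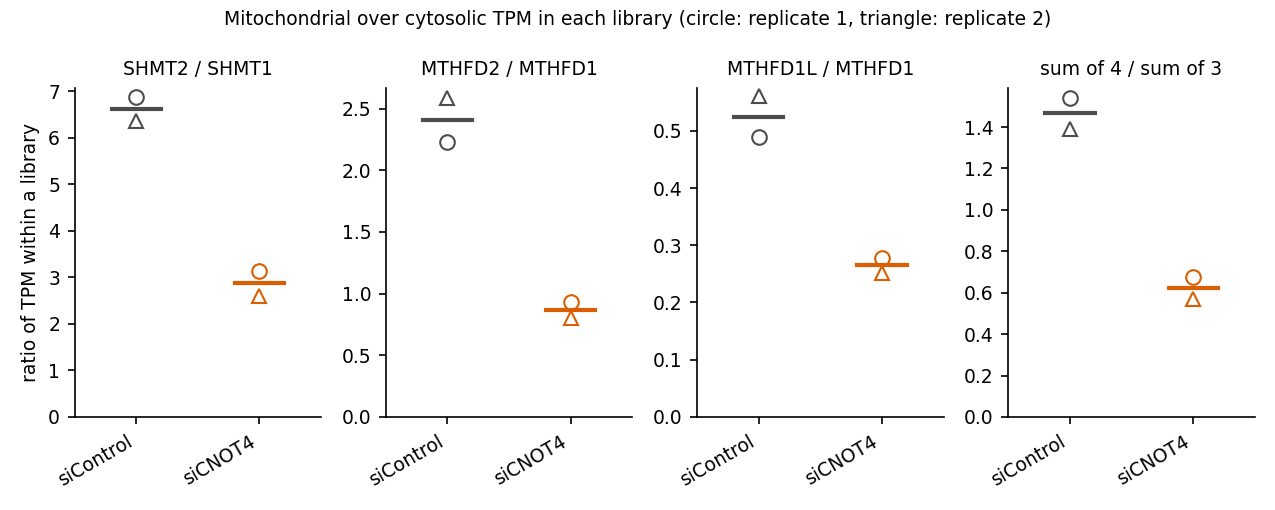
Ratio of mitochondrial to cytosolic TPM within each library for 3 enzyme pairs and for the summed branches, with circles for replicate 1, triangles for replicate 2, bars for group means and axes starting at 0. Every siCNOT4 ratio lies below both siControl ratios, and the summed branches go from 1.54 and 1.39 to 0.674 and 0.571.

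Over whole branches, the 4 mitochondrial genes summed to 1147 and 794 TPM in siControl and to 543 and 474 TPM in siCNOT4. The 3 cytosolic genes summed to 744 and 570 TPM in siControl and to 806 and 830 TPM in siCNOT4. The mitochondrial sum was the larger in both siControl libraries and the smaller in both siCNOT4 libraries. As a mean of log2(TPM + 1) values, the mitochondrial minus the cytosolic branch was -1.003 and -1.11 for the siControl libraries and -1.79 and -1.98 for the siCNOT4 libraries, a group difference of -0.83. This mean weights the rare *ALDH1L2* like the abundant genes, and without it the difference was -1.25. No p is given for a contrast over chosen members, and 2 libraries against 2 could not give an exact two-sided p below 0.333.

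The order of the enzymes by TPM also changed. In siControl, *PHGDH* was highest, above *SHMT2*, *MTHFD2* and *TYMS*, whose libraries overlapped each other. *PSAT1* followed at 317 ± 71.6 TPM, its libraries overlapping those of *SHMT2* and *MTHFD2*, and then *MTHFD1* at 179 ± 61.8 TPM. *MTHFD1L* (92.6 ± 23.5 TPM), *SHMT1* (67.9 ± 14.6 TPM) and *PSPH* (59.2 ± 11.5 TPM) came next, each overlapping its neighbour, and *ALDH1L2* was last at 1.66 ± 0.881 TPM. In siCNOT4, *TYMS* was highest at 519 ± 14.7 TPM, above *PHGDH* and then *SHMT2* at 275 ± 25.3 TPM. *MTHFD1* at 204 ± 1.25 TPM stood above *MTHFD2*, which overlapped *PSAT1* at 170 ± 18.7 TPM. *SHMT1* at 96.1 ± 3.60 TPM then stood above *MTHFD1L* at 53.9 ± 4.24 TPM and *PSPH* at 43.6 ± 3.90 TPM. In the sum over the 10 genes, siControl had 3066 and 2394 TPM and siCNOT4 had 2005 and 1863 TPM.

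Other genes of folate metabolism were higher in siCNOT4 more often than lower, as were features in general. For the list counts below, 11.3% of all features were called higher and 1.30% lower with TPM as deposited. Of 9 tested folate genes outside the 10 and not listed as mitochondrial, 3 rose and 0 fell. Their median log2 fold change was 0.61, beside 0.50 over all features. *ALDH1L1*, the cytosolic paralog of ALDH1L2, stood at 2.37 and 1.78 TPM in siControl and at 14.0 and 12.2 TPM in siCNOT4. It rose by 2.20 (SE 0.27, limma adjusted p = 0.0227) and by 1.72 after TMM scaling. *GNMT*, a glycine methyltransferase, rose by 1.11 and *GGH*, a folate hydrolase, by 0.61, but after TMM scaling neither was called, at 0.77 and 0.014. *GNMT* stood at 0.217 and 0.891 TPM in siControl and averaged 2.29 TPM in siCNOT4. Its siControl mean of 0.554 TPM was below the minimum of 1 TPM, which it passed through siCNOT4. The *GNMT* call was absent with a pseudocount of 0.1, no filter or voom (limma adjusted p = 0.0736, 0.0768 and 0.0841). It held with length and GC trends removed (limma adjusted p = 0.0324), so it depended on the settings.

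Among 11 tested mitochondrial folate and glycine cleavage genes outside the 10, 4 rose and 0 fell, and their median was 0.81. *SFXN1*, a mitochondrial serine carrier, stood at 173 and 112 TPM in siControl and at 274 and 273 TPM in siCNOT4. It rose by 0.97 (limma adjusted p = 0.0453), and was not called after TMM scaling (0.37). Its relative *SFXN3* rose by 1.42 and *SARDH*, a mitochondrial sarcosine dehydrogenase, by 1.36, and both calls held after TMM scaling (0.85 and 0.87). *SLC25A32*, the mitochondrial folate carrier, had a log2 fold change of 0.93 (limma adjusted p = 0.0749), or 0.36 after TMM scaling. *MTHFD2L*, the paralog of MTHFD2, had one of 0.81 (limma adjusted p = 0.0648), also 0.36 after TMM scaling, and stood at 2.45 and 1.73 TPM in siControl against 4.29 and 4.48 TPM in siCNOT4. *GCSH*, a carrier protein of glycine cleavage, went the other way, at 5.32 and 4.29 TPM in siControl and 2.27 and 1.23 TPM in siCNOT4. Its log2 fold change was -1.10 (limma adjusted p = 0.0509), and after TMM scaling it was called lower at -1.53.

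Of 5 tested folate and serine transporters of the plasma membrane, 1 fell and 1 rose, with a median of -0.42. After TMM scaling 3 were called lower and 0 higher, beside 5.78% and 4.12% of all features. *SLC1A5*, a glutamine and neutral amino acid transporter, stood at 290 and 256 TPM in siControl and at 137 and 127 TPM in siCNOT4. It fell by 1.04 (SE 0.15, limma adjusted p = 0.0244), and by 1.64 after TMM scaling, while the folate receptor *FOLR1* rose by 1.05 from 2.54 TPM and was not called after TMM scaling (0.56). *SLC1A4*, which carries serine and alanine, stood at 30.5 and 20.2 TPM in siControl and at 18.5 and 17.1 TPM in siCNOT4, with a log2 fold change of -0.46 (limma adjusted p = 0.243) or -1.04 after TMM scaling (limma adjusted p = 0.0318).

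The uses of folate carbon varied. Of 7 tested genes listed with the methionine cycle and transsulfuration, 2 fell and 2 rose. *CBS*, the first enzyme of transsulfuration, fell by 0.78 and *AHCY*, which hydrolyses S-adenosylhomocysteine, fell by 0.70, and both were also called after TMM scaling (-1.38 and -1.31). *AHCYL1*, a relative of *AHCY*, rose by 1.07, and *MAT1A* rose by 0.84 from a siControl mean of 1.09 TPM. Neither was called after TMM scaling (0.47 each). Of 13 purine synthesis genes, 1 fell (*IMPDH2*, by 0.78, or 1.38 after TMM scaling) and 1 rose (*GMPS*, by 0.65, or 0.050 after TMM scaling), with a median of -0.015. Relative to the median of all features the purine median was -0.52, and 11 of the 13 genes lay below that of all features. After TMM scaling 2 were called lower and 0 higher, beside 5.78% and 4.12% of all features. Of 10 genes of thymidylate and deoxynucleotide supply, 0 passed the test. At a limma unadjusted p under 0.05 there were 5 higher and 1 lower, beside 38.0% and 4.0% of all features. The lower one was *DTYMK*, thymidylate kinase, at 120 and 168 TPM in siControl and 87.9 and 93.1 TPM in siCNOT4, with a log2 fold change of -0.65, or -1.25 after TMM scaling (limma adjusted p = 0.0734 and 0.0653).

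**Figure D4:**
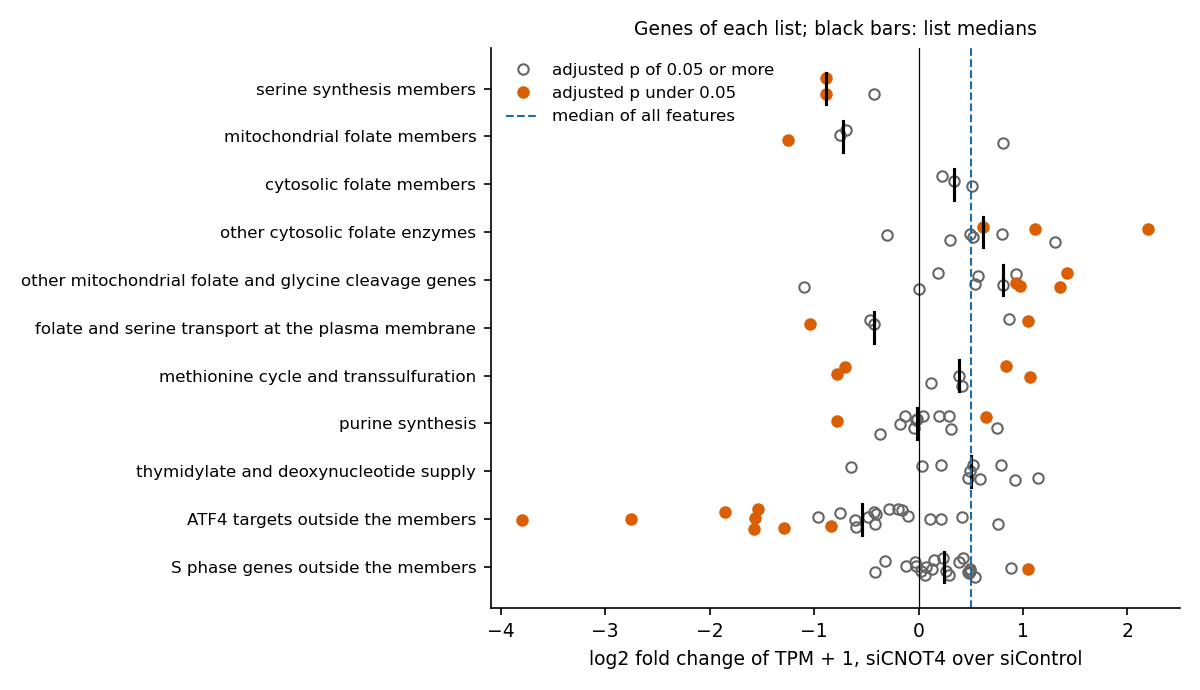
Log2 fold change of TPM + 1 for the tested genes of each list, with filled points for a limma adjusted p under 0.05, black bars for list medians and a dashed line for the median of all features. The serine and mitochondrial members lie left of 0 except *ALDH1L2*, whereas the other mitochondrial folate genes have a median of 0.81.

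The transcription factor gene *ATF4* stood at 1005 and 1151 TPM in siControl and at 358 and 352 TPM in siCNOT4, and fell by 1.60 (SE 0.13, limma adjusted p = 0.0227), or by 2.20 after TMM scaling. Of 24 listed ATF4 targets outside the 10, 8 fell and 0 rose, with a median of -0.54. The lowest were *EIF4EBP1* (-3.80), *NUPR1* (-2.76) and the proline synthesis gene *PYCR1* (-1.86), which after TMM scaling were -4.39, -3.31 and -2.44. After TMM scaling 17 of the 24 were called lower and 0 higher, where 5.78% of all features were called lower and 4.12% higher. A lower stress response in these libraries was known when the list was written, so it is not independent evidence. The part of *ATF4* in the values of the 10 enzymes was not tested. Of 22 S phase genes outside the 10, 1 rose (*CDC6*, by 1.05, or 0.45 after TMM scaling, not called there) and 0 fell, with a median of 0.24, close to the value of 0.34 for *TYMS*.

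Outside the 10, the features averaging 5 TPM or more whose profile over the 4 libraries lay nearest to the mean mitochondrial profile were *SLC1A4*, *FBXO17*, *LOC100506548*, *FHL1* and *BHLHE40*. Their Euclidean distances on centred log2(TPM + 1) values were 0.032, 0.065, 0.093, 0.099 and 0.10. By the same measure *SHMT2* lay at 0.22, *MTHFD1L* at 0.28, *MTHFD2* at 0.78 and *ALDH1L2* at 1.28. The last values show how widely the 4 mitochondrial members spread around their own mean. That mean includes *ALDH1L2*, which was higher in siCNOT4, and its group difference was -0.47. The 5 nearest features had log2 fold changes of -0.46 to -0.38, and none was called for TPM as deposited (limma adjusted p of 0.187 to 0.272). They resemble this average and not the 3 lower genes taken singly.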

How the data were processed

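Poly(A) RNA libraries were made with a stranded kit, per the labels' protocols. The deposited TPM values were made by the authors, and the submitters' processing notes name FastQC 0.11.2, STAR 2.5.3a, featureCounts and the build hg19. Annotation and use of strand are not given in the sources used here. Members, gene lists and tests were chosen with earlier results of these data known.

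TPM steps between libraries gave whole reads (within 0.001) for 18549 of 18557 features above 0 in at least 2 libraries (99.96%), up to a common factor per gene. For features without a solution, reads were estimated from GENCODE 29 lengths. Groups came from sample titles. The 14208 features averaging 1 TPM or more were compared on the log2(TPM + 1) scale, which understates changes of low genes, with limma 3.58.1 in R 4.3.3 (trend, no covariates, two-sided). P values were adjusted by Benjamini-Hochberg over all features, with a threshold of 0.05. The step was tested on simulated data.

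Named genes were the 10 members and, of each list, up to 3 called genes with the lowest and up to 3 with the highest fold change. Added to these were 8 neighbours (*SLC25A32*, *SFXN1*, *MTHFD2L*, *ALDH1L1*, *SLC1A4*, *SLC1A5*, *ATF4*, *CNOT4*) and the 5 nearest profiles, and 1 further neighbour is not reported here. *C12orf45*, *ENOSF1*, *SMCR8*, *SLC4A5*, *ZBTB25*, *NDUFA4L2*, *GCSH*, *DTYMK* and *HBB* were named after their values were seen. Alternatives were a pseudocount of 0.1, other expression minimums, TMM scaling (unweighted, on TPM), quantile normalization, spline removal of length and GC trends (13073 features), limma without a trend, a replicate block and leaving out each library. Chosen after seeing the data were voom on recovered reads (1686 features higher and 432 lower) and the branch contrast without *ALDH1L2* or without *TYMS*.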

Additional observations from a re-analysis of the deposited data

How the results depend on the processing

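Counts of called features depended on the settings more than directions did. Of 14208 features 1792 were called for TPM as deposited, against 558 with a pseudocount of 0.1, 908 with no filter, 147 at a mean TPM of at least 5, 756 with no trend in limma, 2990 with length and GC trends removed, and 450 to 11311 when a library was left out. Of the 10 enzymes 3 were called, against 1 with no filter or at a mean TPM of at least 5, 0 with no trend in limma (where 5 lower and 1 higher had an unadjusted p under 0.05), 6 after TMM scaling, 5 after quantile normalization or with voom, 7 with trends removed, and 1 to 9 when a library was left out. Of the pathway genes 15 were called, against 3 with a pseudocount of 0.1, 4 with no filter, 2 at a mean TPM of at least 5, 2 with no trend, and 2 to 42 when a library was left out. The cause was not tested.

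The replicate block called 3655 features and 5 of the 10 enzymes. Same-numbered libraries deviated together with a correlation of 0.171 across genes, which with 2 pairs does not show pairing.

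Sign changes were -0.087 for *SHMT1*, -0.38 for *MTHFD1* and -0.26 for *TYMS* after TMM scaling. With trends removed they were -0.46 for *MTHFD1* (called lower there, limma adjusted p = 0.0340), -0.018 for *ALDH1L2* and -0.23 for *GMPS*. *MTHFD1* was -0.054 with voom, and its range when a library was left out was -0.13 to 0.58.

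The branch contrast of -0.83 was -0.95 after quantile normalization, -0.98 with trends removed and -1.25 with no *ALDH1L2*. Ratios of *SHMT2* over *SHMT1* (log2 difference -1.20) and *MTHFD1L* over *MTHFD1* (-0.97) became -0.93 and -1.17 after quantile normalization, and the latter -0.75 with trends removed. Each ratio stayed below 0 in every alternative run. With 2 libraries a group, the spread of a gene is poorly known, and for *ALDH1L2* reads were few.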
